A study of Oryza sativa with 6 samples.

Results

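The genes described here build or modify the polymers of the rice cell wall. They were chosen by name: a gene entered where its symbol or RefSeq synonym was a numbered CESA (cellulose synthase catalytic subunit), CSL (cellulose synthase-like), IRX (irregular xylem), XTH (xyloglucan endotransglucosylase/hydrolase) or LAC (laccase) name, with or without the prefix Os. Of 51 genes with such a name, 42 had a probe set assigned to them alone, out of 17905 genes measured. They were divided by name alone into 27 genes of the primary wall (6 CESA, 20 CSL and XTH8), 6 of the secondary wall (CESA4, CESA7, CESA9, IRX9, IRX9L and IRX14) and 9 laccases. Xylan is part of both kinds of wall, so placing all IRX genes in the secondary wall is a convention. The 9 named genes without such a probe set (CSLA3, CSLA4, CSLE6, CSLF3, CSLF4, CSLF9, LAC1, LAC18 and LAC21) were not analysed here, and other genes of these families may be on the array under other names. Members have different sequences and were measured by different probes, but they share the same 6 arrays and are not replicates of a condition.

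Transcript levels came from flag leaves, the leaf just under the panicle, of the japonica rice cultivar Zhonghua11. The 3 wild type and 3 mutant arrays (Affymetrix Rice Genome Array) were made from untreated plants, raised in a greenhouse and then moved to the field. The mutant carries a T-DNA insertion in OsSLAC7 (Os01g0385400), a gene of the SLAC family of anion channels, and the series title names leaf damage as its effect. The labels describe 1 insertion mutant and give no plant age. Replicates are labelled as biological, but the number of plants behind an array is not given, and a p-value speaks only of the spread among these arrays. A probe set for OsSLAC7 was not identified through the annotation used here, so its transcript was not checked.

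Growing plant cells are bounded by a primary wall, in which cellulose made at the plasma membrane by complexes of CESA proteins is embedded in xyloglucan, mannan, xylan and, in grasses, mixed-linkage glucan. After growth stops, cells of the vascular bundles and of supporting fibres deposit a secondary wall of cellulose, made by a separate set of CESA proteins, with xylan and lignin. Laccases are copper enzymes, some of which oxidise lignin precursors in the wall. In grass leaves most cells have only a primary wall, and the secondary walls lie mainly in the veins and in the sclerenchyma around them.

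All levels below are the authors' deposited log2 RMA values, 1 probe set per gene, and every difference is the mutant mean minus the wild type mean on the log2 scale. A change was called where the limma adjusted p, over all 17905 genes, was under 0.05. The medians of the arrays over these genes lay between 7.21 and 7.29 in wild type and between 7.40 and 7.60 in mutant leaves, with mutant replicate 1 the highest. Array weights ran from 0.567 for mutant replicate 1 to 2.24 for wild type replicate 3. Arrays of the same group correlated at 0.995 to 0.998 over genes. Of 7 transcripts that define leaf mesophyll, 6 were among the strong signals of all arrays (RCA, Rubisco activase, 14.2 on each), and 1 of the Rubisco small subunit genes, RBCS1, read 2.35 to 2.68. Only 3 arrays per group limit the precision of all values, and bulk leaf RNA does not separate a change in the number of cells of a type from a change in RNA per cell.

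Wall polymer genes were higher in mutant leaves more often than lower. Of the 42, 18 rose, 1 fell and 23 did not pass, against 21.0% of all genes that rose and 6.32% that fell. That is 42.9% of the members higher. Their median difference was 0.27, and that of all genes 0.10. In 20 members all 3 mutant values lay above all 3 wild type values, in 2 below, and in 20 the groups overlapped. Of all genes 45.6% had groups that did not overlap, 32.2% with the mutant above and 13.4% with the mutant below. A called rise of 1 or more was found in 3 members (LAC7, CSLA1 and CSLC9), against 3.02% of all genes. The rises were found mostly in the primary-wall group, with 15 of 27 (55.6%) higher and 1 lower. In the secondary-wall group 2 of 6 rose, both of them IRX genes, and 1 of 9 laccases rose. Whether these shares differ between groups was not tested. Further scalings of the arrays are referred to below. In gene-median centring, each array was set to the same median over genes, which brings the median difference of all genes from 0.10 to -0.12. In deviation centring, the median over genes of the deviation from the gene mean was removed from each array, which brings it to -0.0021. After gene-median centring 10 of the 42 members rose and 7 fell, while 1804 of all 17905 genes rose and 3935 fell, so that falls were no more frequent among the members than among all genes. After deviation centring 13 members rose and 2 fell, against 15.1% and 12.1% of all genes. Setting each array to the same median over all probe sets instead brought the median difference of all genes to 0.15. There 18 members rose and 1 fell, against 22.3% and 3.58% of all genes. The members that rose but no longer passed after gene-median centring were CESA3, CESA8, CSLA5, the CSLA9 at LOC4341571, CSLC7, CSLE2, CSLF6 and IRX14. Without wild type replicate 3, 11 members rose, of them 9 of the primary wall, against 11.9% of all genes.

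**Figure D1:**
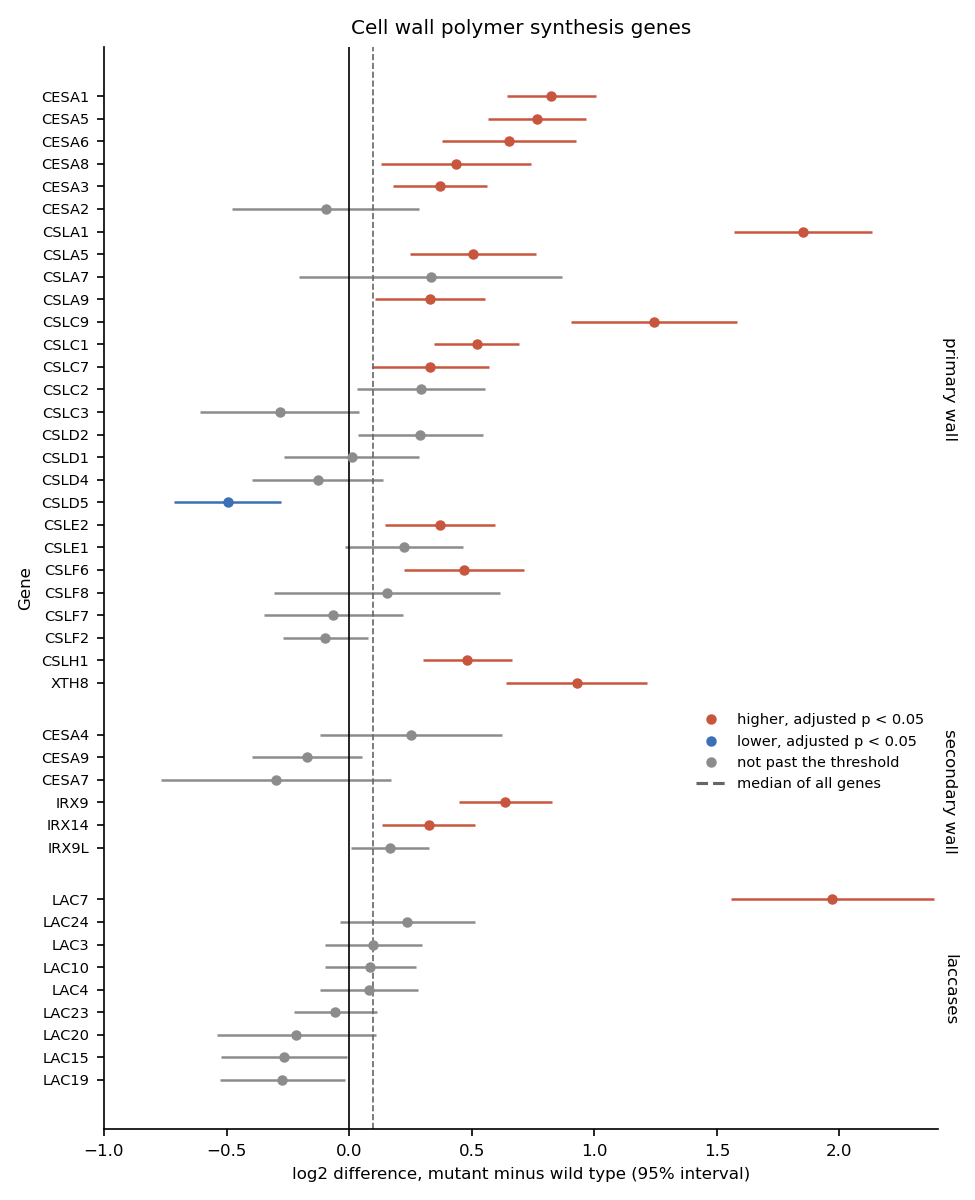
Log2 difference between mutant and wild type leaves (x axis) for each of the 42 genes (y axis), with the 95% interval of each difference from limma, not adjusted for multiple testing. Red points passed the adjusted threshold upward and blue downward, grey ones did not pass, and the dashed line is the median of all genes (0.10). The longest shifts are LAC7 (1.97), CSLA1 (1.85) and CSLC9 (1.24), and CSLD5 (-0.50) is the only member called lower.

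The cellulose synthases of the primary wall rose in 5 of 6 cases, and none of those of the secondary wall passed. Of all genes 21.0% rose and 27.3% were called in either direction. With only 3 secondary-wall subunits, 0 calls do not set them apart from all genes. CESA1 (LOC4337958), a core subunit of the complex that makes primary-wall cellulose, read 7.16, 6.99 and 7.02 in the wild type arrays and 7.94, 7.85 and 7.86 in the mutant arrays. Every mutant array stood above every wild type array, and the groups differed by far more than the replicates within them. The difference was 0.82 (SE 0.08, 95% interval 0.64 to 1.01), a 1.77-fold rise, with a limma adjusted p of 0.000451. CESA5 (LOC4334710) had 6.16, 6.31 and 6.32 in wild type and 7.14, 6.95 and 6.99 in mutant leaves, a rise of 0.77 (SE 0.09, limma adjusted p = 0.000931). In CESA6 (LOC4342850) the wild type values of 6.47, 6.59 and 6.56 lay below the mutant values of 7.19, 7.42 and 6.97, a rise of 0.65 (SE 0.12, limma adjusted p = 0.0067). CESA5 and CESA6 are close relatives within the primary-wall subunits. In CESA5 the gap between the groups was wider than the range of either group, and in CESA6 the mutant arrays were spread more widely (SD 0.22) than the wild type arrays (SD 0.06).

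Smaller rises were found for the remaining pair. CESA3 (LOC4343049), a primary-wall subunit, read 8.68, 8.88 and 8.73 in wild type and 9.19, 9.14 and 9.06 in mutant leaves (difference 0.37, SE 0.08, limma adjusted p = 0.0158). CESA8 (LOC4342699) read 6.97, 6.99 and 6.80 against 7.64, 7.26 and 7.17 (difference 0.44, SE 0.13, limma adjusted p = 0.0438). In both, the lowest mutant array was above the highest wild type array, but the gap was narrow, and in CESA8 it was mutant replicate 1 that stood highest. CESA2 (LOC4334515) overlapped between groups, with 5.22, 4.75 and 5.33 in wild type and 4.81, 5.06 and 5.14 in mutant leaves (difference -0.10, SE 0.16, limma adjusted p = 0.687). CESA3 missed the threshold when wild type replicate 1 (limma adjusted p = 0.0501) or wild type replicate 3 (0.0672) was left out, and CESA8 missed it without any 1 of the wild type arrays, mutant replicate 1 or mutant replicate 2 (adjusted p from 0.0609 to 0.140). CESA3 (0.16) and CESA8 (0.22) kept their sign after gene-median centring without passing, and CESA1, CESA5 and CESA6 passed.

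**Figure D2:**
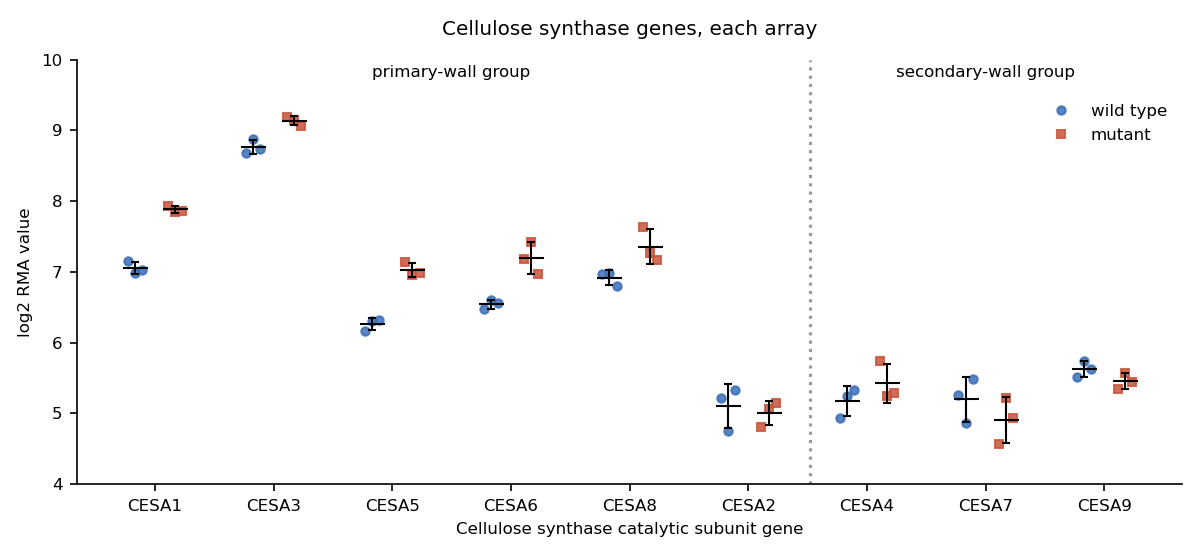
Log2 RMA value (y axis) of the 9 cellulose synthase genes (x axis) in each wild type (blue circles) and mutant (red squares) array, with the mean as a horizontal line and the SD as an error bar (n = 3 each). In CESA1, CESA3, CESA5, CESA6 and CESA8 all mutant points lie above all wild type points, while the groups overlap in CESA2, CESA4, CESA7 and CESA9; levels of different genes come from different probes and are not comparable.

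CESA4, CESA7 and CESA9, the subunits whose loss makes rice culms brittle, make the cellulose of the secondary wall. CESA4 (LOC4324625) read 4.94, 5.25 and 5.33 in wild type and 5.74, 5.25 and 5.29 in mutant leaves. The mutant mean was higher (difference 0.25, 95% interval -0.12 to 0.62, limma adjusted p = 0.271), mainly through mutant replicate 1. The other 2 mutant arrays fell inside the wild type range, above the wild type mean of 5.17. CESA7 (LOC4348853) was the most variable of the 3, with 5.26, 4.86 and 5.48 against 4.57, 5.21 and 4.93 (difference -0.30, 95% interval -0.77 to 0.17, limma adjusted p = 0.302). CESA9 (LOC4347093) had 5.51, 5.74 and 5.62 in wild type and 5.34, 5.57 and 5.44 in mutant leaves (difference -0.17, 95% interval -0.39 to 0.05, limma adjusted p = 0.217). The upper bounds of all 3 lie below the lower bound for CESA1 (0.64), but those of CESA4 and CESA7 lie within the intervals of CESA3 (0.18 to 0.56) or CESA8 (0.13 to 0.74). No test of the difference between the primary and secondary subunits was made. After gene-median centring CESA9 passed as lower (-0.39, limma adjusted p = 0.0385).

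Xylan, the main matrix polymer of grass walls, is made with glycosyltransferases of family GT43, to which IRX9, IRX9L and IRX14 belong. Unlike the secondary-wall cellulose synthases, all 3 had their mutant values above their wild type values, as did 32.2% of all genes. IRX9 (LOC4344394) read 5.01, 4.92 and 4.93 in wild type and 5.71, 5.53 and 5.53 in mutant leaves, a rise of 0.64 (SE 0.08, limma adjusted p = 0.00163) or 1.56-fold. IRX14 had 8.77, 8.98 and 8.88 against 9.25, 9.21 and 9.15, a rise of 0.33 (SE 0.08, limma adjusted p = 0.024). IRX9L had 8.69, 8.75 and 8.72 against 8.92, 8.90 and 8.85, a difference of 0.17 (SE 0.07) that did not pass (limma adjusted p = 0.111). The SD of IRX9L was 0.03 in wild type and 0.04 in mutant leaves (n = 3 each). IRX14 missed the threshold with wild type replicate 1 (adjusted p = 0.0684), wild type replicate 3 (0.085) or mutant replicate 1 (0.0608) left out, and after gene-median (0.11) or deviation centring (0.23), which leaves IRX9 as the sole secondary-wall gene called higher there.

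The CSLA family, glucomannan synthases, held the largest change among the polysaccharide synthases of the 42 genes. The gene called CSLA1 and also CSLA9 in RefSeq (LOC4328585) read 6.23, 6.19 and 5.93 in wild type leaves. In mutant leaves it read 8.13, 7.99 and 7.78, so that the lowest mutant array stood far above the highest wild type array. The rise was 1.85 (SE 0.12, 95% interval 1.57 to 2.13), or 3.6-fold, with a limma adjusted p of 0.000101. Its call held under all 16 alternatives that gave a value, with differences from 1.64 to 1.94. CSLA5 (LOC4332966) followed, with 5.74, 5.57 and 5.80 against 6.35, 6.01 and 6.26 (difference 0.51, SE 0.11, limma adjusted p = 0.0147). The other gene with the name CSLA9 (LOC4341571) had 4.98, 4.95 and 5.06 against 5.29, 5.5 and 5.19 (difference 0.33, SE 0.10, limma adjusted p = 0.0405). CSLA7 overlapped, with wild type values from 3.54 to 4.25 and mutant values from 4.09 to 4.71 (difference 0.33, limma adjusted p = 0.312). Limits apply to the weaker pair: CSLA5 lost its call without wild type replicate 2 (adjusted p = 0.054), and the other CSLA9 with a replicate block (0.0651) and without any 1 of 5 arrays, all but mutant replicate 3 (adjusted p from 0.0673 to 0.124).

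Xyloglucan, which coats cellulose in the primary wall, has a glucan backbone made by CSLC proteins, and XTH enzymes cut and rejoin its chains in the wall. CSLC9 (LOC4334258) rose from 4.30, 4.74 and 4.18 in wild type to 5.73, 5.68 and 5.54 in mutant leaves. The wild type arrays were spread more widely (SD 0.29) than the mutant arrays (SD 0.10), and the gap between the groups exceeded both. The rise was 1.24 (SE 0.15), or 2.37-fold, with a limma adjusted p of 0.0011; its wild type level, too, is not shown to lie above background. CSLC1 (LOC4325496) read 7.12, 7.13 and 7.04 against 7.65, 7.66 and 7.55, a rise of 0.52 (SE 0.07, limma adjusted p = 0.00252). CSLC7 (LOC4339283) read 6.24, 6.28 and 6.03 against 6.66, 6.47 and 6.41, a rise of 0.33 (SE 0.10) close to the threshold (limma adjusted p = 0.0479), and without any 1 array its adjusted p lay between 0.0586 and 0.166. CSLC2 (0.29) and CSLC3 (-0.28) did not pass (limma adjusted p = 0.0911 and 0.17). CSLC2 passed when mutant replicate 1 was left out (0.39, limma adjusted p = 0.0354).

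XTH8 (LOC4345019) was the only XTH gene matched by name. Its product belongs to the enzymes that remodel xyloglucan, and in rice its transcript is known to respond to gibberellin. The 3 wild type arrays had 7.09, 7.31 and 7.39 and the 3 mutant arrays 8.36, 8.24 and 7.98. Groups were well apart, and the rise of 0.93 (SE 0.12, limma adjusted p = 0.00197), or 1.90-fold, passed in all 17 alternatives run. Over those alternatives it ranged from 0.71 to 1.03.

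Mixed-linkage glucan, a polymer typical of grass walls, is made by CSLF6 and, as shown for the barley protein, by CSLH1. CSLH1 (LOC4348359) had nearly equal wild type values of 8.61, 8.65 and 8.61 and mutant values of 9.17, 9.15 and 9.0. It rose by 0.48 (SE 0.08, limma adjusted p = 0.00419) and stayed past the threshold in all 17 alternatives run. CSLF6 (LOC4344719), the main synthase of this glucan in rice, read 5.79, 5.90 and 5.72 against 6.46, 6.22 and 6.13 (difference 0.47, SE 0.10, limma adjusted p = 0.0159). CSLF6 missed the threshold when wild type replicate 3 was left out (limma adjusted p = 0.0641), and the mean of its 3 probe sets differed by 0.05 (limma adjusted p = 0.695). CSLF2, CSLF7 and CSLF8 read at most 4.14 on any array and differed by -0.10, -0.06 and 0.15 with overlapping groups. CSLF2 and CSLF8 lie close together in the genome, with 1 gene between them in the RefSeq order.

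CSLD proteins act mainly in cells that grow at their tips and in dividing cells. Of the 4 genes measured 0 were called higher and 1 lower, against 21.0% and 6.32% of all genes. Their differences went up in 2 and down in 2, and so few genes do not set the family apart. CSLD5 (LOC4340943) was the only member called lower, with 3.24, 3.0 and 3.21 in wild type and 2.55, 2.72 and 2.69 in mutant leaves. It fell by 0.50 (SE 0.09, limma adjusted p = 0.00834), and the call held under the 16 alternatives that gave a value. These values are at the dim end of the array: 4.27% of all genes had a lower mean. CSLD2 lay above wild type in every mutant array, 6.33, 6.53 and 6.12 against 6.04, 6.08 and 5.99, without passing (difference 0.29, limma adjusted p = 0.0874), and passed without mutant replicate 3 (0.39, adjusted p = 0.0314). CSLD4, in which mutations give rice narrow, rolled leaves, differed by -0.13 (95% interval -0.40 to 0.14), and CSLD1, which acts in root hairs, by 0.01 (95% interval -0.26 to 0.29). In the CSLE family CSLE2 (LOC4330583) rose by 0.37 (SE 0.10, limma adjusted p = 0.0274), from 6.62, 6.36 and 6.63 to 6.93, 6.96 and 6.83, and CSLE1 (0.22) overlapped. CSLE2 lost its call without wild type replicate 2 (adjusted p = 0.0865), wild type replicate 3 (0.0509), mutant replicate 1 (0.065) or mutant replicate 2 (0.0647). These values are from 1 of its 3 probe sets, and another gave a rise of 1.17.

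**Figure D3:**
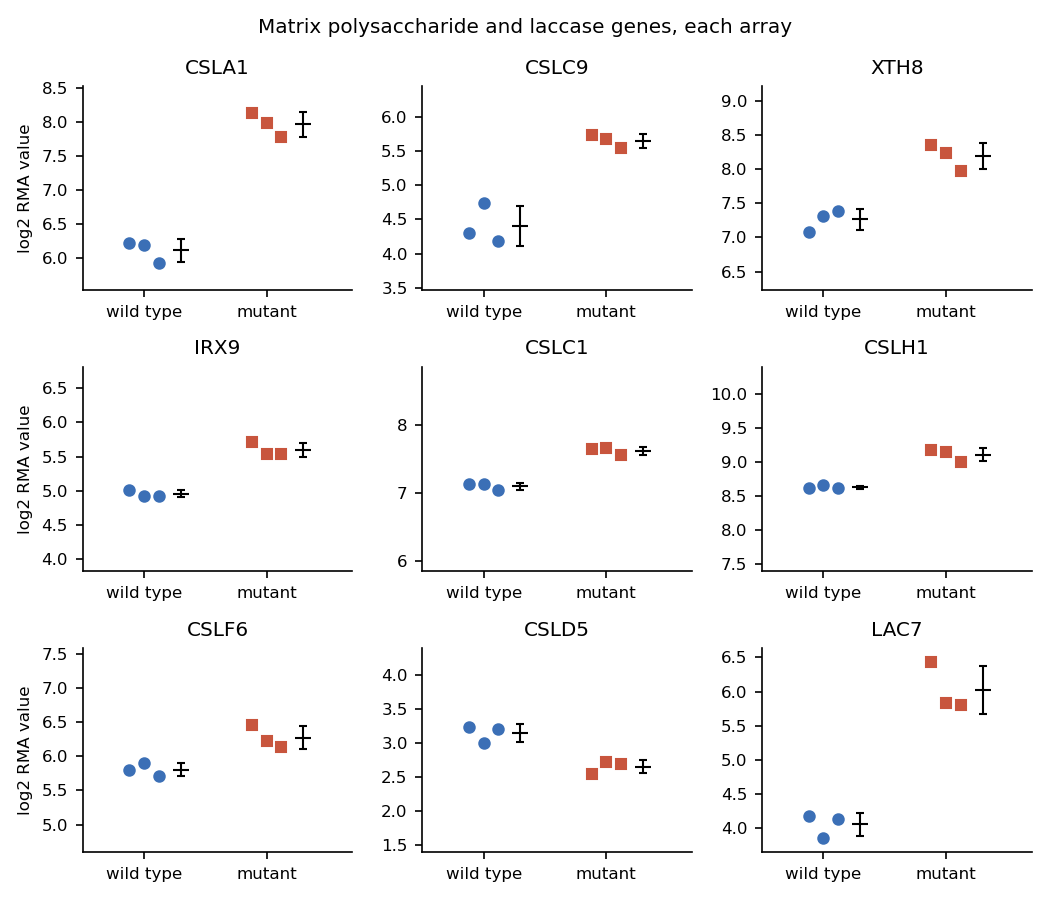
Log2 RMA value (y axis, 3 units in each panel) in each wild type (blue circles) and mutant (red squares) array for 9 genes, with the mean and SD (n = 3) as a black mark to the right of each group. The 9 genes were picked from the called members, so groups that do not overlap in any panel follow largely from that choice. Of all genes 45.6% had groups that did not overlap. CSLA1 and LAC7 show the widest gaps, and CSLD5 is the panel where the mutant arrays are the lower ones.

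Among the laccases 1 gene (11.1%, against 21.0% of all genes) rose strongly and the other 8 did not pass. LAC7 (LOC4324802) read 4.17, 3.85 and 4.13 in wild type leaves and 6.43, 5.83 and 5.81 in mutant leaves. Mutant replicate 1 was the highest, and the other 2 mutant arrays were also well above the wild type. The mean went from 4.05 ± 0.17 to 6.02 ± 0.35 (SD, n = 3 each), a rise of 1.97 (SE 0.18, 95% interval 1.56 to 2.39, limma adjusted p = 0.000365) or 3.92-fold. This was the largest rise among the 42 genes, and it passed in all 16 alternatives that gave a value. No detection calls were used, so the wild type level is not shown to lie above background, and the fold may understate the change.

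All 9 laccase probe sets had a mean below the lower quartile of all genes, where RMA values change little with the amount of RNA. LAC24 read 3.66, 3.62 and 3.64 in wild type and 3.61, 3.96 and 4.06 in mutant leaves, a difference of 0.24 that passed only without mutant replicate 1 (0.37, limma adjusted p = 0.0206). LAC3 read 3.31, 3.17 and 3.39 against 3.37, 3.46 and 3.34 (difference 0.10). Neither pair of groups was separated. LAC10 had 4.72, 4.78 and 4.74 against 4.75, 4.95 and 4.79 (0.09), and LAC4 had 4.05, 3.98 and 4.09 against 4.19, 4.19 and 3.99 (0.08). LAC23 had 3.59, 3.66 and 3.6 against 3.5, 3.56 and 3.63 (-0.06). These 3 overlapped as well, with limma adjusted p of 0.454, 0.512 and 0.596.

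In the remaining 3 laccases the mutant mean was below the wild type mean, as in LAC23, without passing. LAC19 read 3.27, 3.11 and 2.90 against 2.71, 2.87 and 2.88 (difference -0.27, limma adjusted p = 0.105), and LAC20, its direct neighbour in the RefSeq gene order, 3.17, 3.37 and 3.09 against 2.99, 3.25 and 2.75 (difference -0.22, limma adjusted p = 0.281). LAC15 read 2.98, 3.17 and 2.88 against 2.58, 2.77 and 2.88 (difference -0.27, limma adjusted p = 0.113). In LAC19 the groups were just separated, and in the other 2 they overlapped. After gene-median centring these 3 passed as lower (differences of -0.49, -0.43 and -0.48), so that 1 laccase rose and 3 of 9 fell, where 3935 of all 17905 genes fell, and after deviation centring 1 rose and LAC19 fell.

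More than 1 probe set reported on the same gene in 7 members. CESA1 rose by 0.82 on the probe set used and by 0.15 (SE 0.13) on the other, whose values of 3.99 to 4.38 lay near the dim end. The probe sets of CESA3 gave 0.37 and 0.33, and their mean missed the threshold (0.35, limma adjusted p = 0.097). CESA4 gave 0.25 and -0.25, opposite signs of which neither passed (limma adjusted p over all probe sets 0.329 and 0.207). In CSLE2 the probe set used, which ends in _x_at and can bind related transcripts, gave 0.37 (limma adjusted p over all probe sets 0.0648). Another gave 1.17 (SE 0.11, limma adjusted p over all probe sets 0.000307), from 5.92, 5.85 and 5.91 to 7.22, 6.95 and 7.0. The last gave 0.32 (limma adjusted p over all probe sets 0.241). CSLF6 gave 0.47, -0.20 and -0.12, the lower ones from probe sets that read at most 3.30 on any array. IRX9L gave 0.17 and, on a probe set that read at most 2.60, -0.06, and CESA2 gave -0.10 and 0.06. Of the members, 5 rest on a probe set ending in _x_at or _s_at, namely CSLC7, CSLD4, CSLE2, IRX14 and IRX9L.

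**Figure D4:**
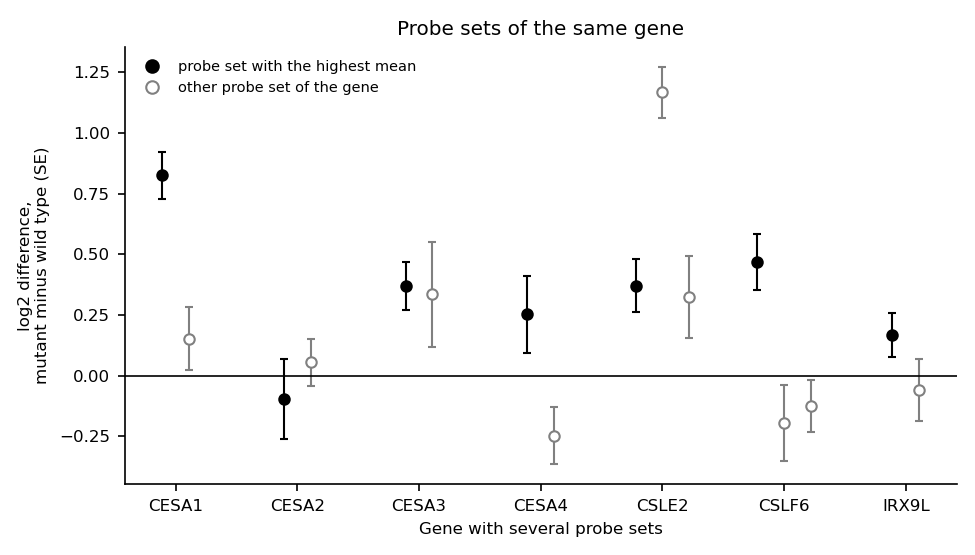
Log2 difference between mutant and wild type leaves (y axis, error bars SE from limma over all probe sets) for each probe set of the 7 genes (x axis) that have several. Filled points are the probe set with the highest mean, which the text uses, and open points the others; the open points of CESA1 (0.15) and CSLF6 (-0.20 and -0.12) lie below the filled ones, and 1 open point of CSLE2 (1.17) lies above.

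Other genes of wall formation were taken from lists by name. Of 20 genes for lignin precursors, 13 rose and 2 fell (65.0% and 10.0%, against 21.0% and 6.32% of all genes), with a median difference of 0.44. The largest rise of the list was that of ROMT-17 (1.09), and ROMT-15 (0.29) rose too. The phenylalanine ammonia-lyases PAL (0.95) and PAL06 (0.48), which open the pathway, rose, as did all 3 hydroxycinnamoyltransferase genes, HCT1 to HCT3 (0.49 to 0.55). Among the 5 coumarate:CoA ligases 4CL3 (0.67), 4CL4 (0.54), 4CL (0.40) and 4CL5 (0.31) rose, while 4CL2 fell by 0.71. The values of 4CL were dim, at most 3.49 on any array. Of the 7 cinnamyl alcohol dehydrogenases CAD8C (0.77) and CAD2 (0.63) rose and CAD3 fell by 0.30. Rises numbered 8 when wild type replicate 1 was left out, and after gene-median centring the list had 8 rises and 4 falls.

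Of 27 genes for wall assembly and sugar nucleotide supply, 10 rose (37.0%, against 21.0% of all genes) and none fell by limma. In this list 14 genes (51.9%) had an unadjusted p under 0.05, against 40.5% of all genes, and the median difference was 0.24, with 17 genes that did not pass. The endoglucanase genes GLU8 (1.66) and GLU13 (1.35) rose most, and GLU1 (0.52) and GLU2 (0.55) rose with them, among 11 measured. The size of the GLU8 rise depends on wild type replicate 1, which read 3.61. The other wild type arrays read 4.83 and 4.82, and the mutant arrays 6.42, 5.83 and 6.01. Of 6 sucrose synthase genes, whose enzyme can supply UDP-glucose for cellulose, SUS1 (1.2), SUS4 (0.71) and SUS2 (0.57) rose. XAT2 (0.99), a xylan arabinosyltransferase gene, rose, with mutant replicate 1 at 5.66 and the other mutant arrays at 4.48 and 4.85 against 3.95 to 4.06 in wild type. The name BC1 stands for 2 genes in RefSeq. LOC4333114 differed by -0.13 without passing, and LOC4347540, which RefSeq also names as a bHLH gene, rose by 0.86 and may not act in wall assembly. None of the 3 UDP-glucose dehydrogenase genes passed (-0.16 to -0.015), and none had an unadjusted p under 0.05. Gene-median centring gave 8 rises and 5 falls in this list, and deviation centring 10 rises and 3 falls. No gene name matched the list of wall transcription factors, which were therefore not analysed here.

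Markers of other tissue and of dividing cells were read in the same arrays. Of 18 markers of panicle and flower organs 10 rose (55.6%, against 21.0% of all genes) and none fell, and the mean level of the list was 4.87 to 4.91 in the wild type arrays and 5.37 to 5.56 in the mutant arrays. MADS45 (1.71) and MADS24 (1.57) led, from wild type means of 3.51 and 4.25. DL (0.03) and MADS13 (-0.01) overlapped between groups and read at most 4.37 on any array. LOC4343851, listed as MADS2, did not pass. Its wild type mean was 11.0, and 94.1% of all genes had a lower mean over the arrays, so it does not mark panicle tissue alone. Of 22 dividing-cell markers 6 rose (27.3%), a share near that of all genes, led by CYCB2;2 (1.37), with list means of 5.63 to 5.69 and 5.87 to 6.12. None of 7 mesophyll markers passed by limma, none had an unadjusted p under 0.05, and their list means were 11.90 to 11.94 in wild type and 11.91 to 12.02 in mutant arrays. Log2 RMA values have no zero, so absence of a marker cannot be read from them. Gene-median centring gave 8 rises and 1 fall among the panicle markers, and 4 rises and 3 falls among the dividing-cell markers. The part of these markers in the results on the wall genes was not tested.

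Over the arrays, the primary-wall genes stood at a median of 0.43, 0.38 and 0.26 above their wild type means in mutant replicates 1, 2 and 3, and between -0.03 and 0.04 in the wild type arrays. All genes stood at 0.17, 0.07 and 0.06 in the same mutant arrays. The secondary-wall genes stood at 0.28, 0.12 and 0.12, and the laccases at -0.03, 0.15 and 0.01. By this median, replicate 1 was the highest of the mutant arrays for the primary and secondary wall groups and the lowest for the laccases. The order depends on the summary. By mean level, mutant replicate 2 was the highest for the secondary-wall group (6.61, against 6.59 in replicate 1). The laccases had a mean of 3.79 in both mutant replicate 1 and mutant replicate 3.

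**Figure D5:**
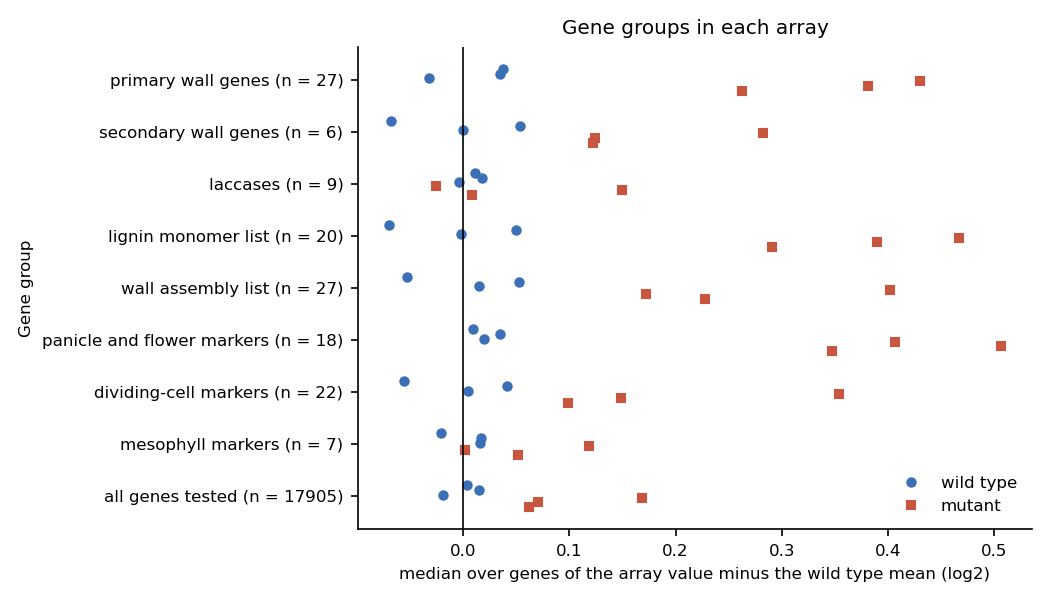
Median over the genes of a group (y axis) of the array value minus the gene's wild type mean on the log2 scale (x axis), for each wild type (blue circles) and mutant (red squares) array, with the number of genes in brackets. The mutant arrays lie at 0.26 to 0.43 for the primary-wall genes and at 0.35 to 0.51 for the panicle and flower markers, against 0.06 to 0.17 for all genes, and the laccases show overlapping groups.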

How the data were processed

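Biotin-labelled cRNA of flag leaf total RNA was hybridised to 6 arrays, 3 per group, each from a different sample. Values are deposited as log2 per probe set, and the submitters' processing notes name RMA and the affy package, whose versions are not given in the sources used here. The scale was taken from the values, 1.65 to 14.5. RMA equalises intensity distributions between arrays, so differences in total RNA are removed. Scanner files, detection calls and scan batches were not used here.

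The 123 AFFX controls were left out of 57381 probe sets. Names came from the platform annotation and, through Entrez identifiers, from the RefSeq table of assembly ASM3414082v1: 22436 probe sets had 1 gene, all of them matched, and 95 had several. Where a gene had several single-gene probe sets, the one with the highest mean over all arrays was used, which gave 17905 genes. The groups were compared in limma 3.58.1 under R 4.3.3 with lmFit and eBayes, two-sided and without covariates, and p was adjusted by Benjamini-Hochberg over all genes at a threshold of 0.05. For a single value, 3 against 3 arrays allow no exact permutation p below 0.1. The same code was tested on simulated arrays. Tables and figures were made with pandas 2.3.3 and matplotlib 3.10.9 in Python 3.11.15.

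The members and lists were chosen with earlier results of these data known. The rule for named genes took all CESA, secondary-wall and laccase members and each other member past the threshold (at most 15), which gave 32, and the other 10 members are included to account for all 42. Alternatives were a replicate block, scalings, variance models, array weights, left-out arrays, a filter on dim genes, gene summaries and thresholds. No sequences or coordinates are given, since the tables used here hold no sequence and the array's build is not given in the sources used here.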

Additional observations from a re-analysis of the deposited data

How the results depend on the processing

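Of the 19 called members, 11 stayed past the threshold under every alternative fit that gave a value (CESA1, CESA5, CESA6, CSLA1, CSLC1, CSLC9, CSLD5, CSLH1, IRX9, LAC7 and XTH8), and all 19 kept their sign. After gene-median centring the members higher and lower numbered 10 and 7, those of the primary wall 8 and 3, of the secondary wall 1 and 1 and the laccases 1 and 3. After deviation centring 2 members were lower, among them 1 laccase, and 1 secondary-wall gene was higher, where 12.1% of all genes were lower and 15.1% higher. Both scalings move the difference of every gene by 1 constant, -0.21 and -0.10, so they leave the distance between genes as it was. In the brighter part of the genes, where 7 of the 42 members are tested, 6 were higher and 0 lower (29.4% and 12.6% of the brighter genes), with 4 and 0 in the primary wall. No laccase was bright enough to be tested there, so 0 higher laccases follows from the filter. At an adjusted p of 0.01 there were 10 higher members, 8 of the primary and 1 of the secondary wall. The share of all genes at 0.01 was not counted, so these numbers cannot be set against it. With a log2 difference of 1 or more 3 were higher (3.02% of all genes), 2 of them of the primary and 0 of the secondary wall, and 0 members, 0 in the primary wall, were lower. Secondary-wall genes higher numbered 1 where _x_at and _s_at probe sets were dropped, against 19.7% of all genes. In the fit over all probe sets 1 was higher, against 13.8% of all genes.

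Leaving out 1 array at a time, 11 to 18 members were higher and 1 lower, while 11.9% to 20.3% of all genes were higher and 3.19% to 5.72% lower. In the primary wall 9 to 15 were higher and 1 lower. The secondary wall had 1 to 2 higher and 0 lower, and the laccases 1 to 2 higher and 0 lower. With a replicate block 17 members were higher and 1 lower, against 20.9% and 5.65% of all genes. CSLA9 was the only called member that lost its call there. The numbers were not taken to pair the arrays: deviations from the group means of same-numbered arrays correlated at 0.12, 0.12 and -0.02 over genes.

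Sign changes were found only in uncalled members. Those under the centrings follow from the constants above and say nothing more of the genes: after gene-median centring LAC3 was -0.12, LAC10 -0.13, LAC4 -0.13, CSLD1 -0.20, CSLF8 -0.060 and IRX9L -0.047, and after deviation centring LAC3 was -0.0011, LAC10 -0.014, LAC4 -0.019 and CSLD1 -0.089. The cause of the others was not tested. On its probe set that does not end in _x_at IRX9L was -0.061. Over the fits that leave out 1 array CESA2 ran from -0.27 (without wild type replicate 2) to 0.020 (wild type replicate 3), with 0.0017 without mutant replicate 1. CSLD1 ran from -0.083 (without mutant replicate 3) to 0.11 (mutant replicate 1), CSLF8 from -0.030 (mutant replicate 2) to 0.29 (wild type replicate 2), and CSLF7 from -0.16 (wild type replicate 2) to 0.015 (wild type replicate 3).

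Signal limits what can be read: 21 of the 42 members had a mean below the lower quartile of all genes, all 9 laccases among them.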
